A study of Mus musculus with 5 samples.

Results

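TREM receptors and myeloid C-type lectins are activating surface receptors of macrophages, monocytes, neutrophils and dendritic cells. A set of 9 such genes was described, of 37074 gene names on the array: the receptors Trem1, Trem2, Trem3, Clec4e, Clec4d, Clec4n and Clec7a and the adaptors Tyrobp and Fcer1g. They were measured by 11 of 56605 probes. The set was started from Trem1 and Clec4e, selected on their signal, which was higher in every tumor array than in LSEC, and was completed with related receptors and their adaptors. The ratios of TECs to LSEC therefore helped to choose the set and are given as a description, with no test. The labels call the material endothelial. The study also checked the purity of the isolated cells by flow cytometry and reports that most cells of the TEC isolates were TECs. The genes described are those of myeloid cells, and the markers of both are given with the results.

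The study compared endothelial cells of hepatoma with those of the liver, with 1 array for each of 5 conditions. LSEC was the array of liver sinusoidal endothelial cells from mouse liver. HAK-1B TEC, Hepa1-6 TEC and KYN-2 TEC were the arrays of tumor endothelial cells, the CD31+ cells that magnetic beads retained from digested tumors. The tumors grew from hepatoma lines inoculated into the left liver lobe, of human origin for HAK-1B and KYN-2 and of mouse origin for Hepa1-6. The fifth array, called cultured Hepa1-6 here, held the Hepa1-6 cells grown in culture without a host. The labels give the strain C57BL/6 for LSEC and all TECs and C57L for the cultured cells. The methods name female mice, 6 weeks old, of C57BL/6 or of the nude strain BALB/c nu/nu, and do not tie a strain to an array. Nude mice lack mature T cells and keep their myeloid cells. The text of the methods on the arrays names Huh-7 in place of HAK-1B, and the labels were followed. No treatment is given for these 5 arrays. CD31 is also carried by myeloid cells and platelets, and the number of mice behind an array is not given.

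In background, most of these receptors have no signalling tail of their own. TREM1, TREM2 and TREM3 pair with the adaptor DAP12, encoded by Tyrobp, and the lectins Mincle (Clec4e), MCL (Clec4d) and Dectin-2 (Clec4n) pair with the Fc receptor gamma chain, encoded by Fcer1g. Dectin-1 (Clec7a) has a tyrosine motif in its own tail. Each path recruits the kinase Syk, and the lectins signal on through Card9 to NF-kB. In liver, such receptors are carried by Kupffer cells, the resident macrophages, and by monocytes and neutrophils that enter from blood. TREM1 amplifies inflammation in neutrophils and monocytes, TREM2 binds lipids and is known from macrophages of tumors and injured liver, and Mincle binds mycobacterial glycolipids and products of dead cells.

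A gene measured by more than 1 probe can be judged by the sequences that read it. The TREM genes lie together on chromosome 17, where their probes spanned 106 kb of the mouse build mm9, and the probes of Clec4n, Clec4d and Clec4e spanned 36.0 kb of chromosome 6. Of the 11 probes, 9 carried an accession that was found in the RefSeq gene table. Trem1 had 2 probes in its last part, and they differed in sequence. The first lay at chr17:48385230-48385289. The second lay at chr17:48385849-48385908 and held 12 TTG units in a row, and it is called the repeat probe. The lines show 30 of the 60 bases of each, 5′ to 3′, with the repeat in capitals.
Trem1, other probe, bases 1 to 30: gtgcagatgctgttcatctcagtaggtttg
Trem1, repeat probe, bases 21 to 50: TTGTTGTTGTTGTTGTTGTTGTTGTTGTTG
The array held 10 probes with at least 5 TTG units in a row, of which 6 were well above background on all 5 arrays, beside 39.0% of the other 56595 probes. The 3 probes with at least 10 units were well above background on all 5 arrays. The repeat probe of Trem1 is itself in each of these counts.

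The remaining genes were read by 1 probe each, apart from Clec7a with 2. Both probes below cross the joint between exons of the spliced RNA and are shown whole because genomic DNA does not hold them as 1 run. The probe of Tyrobp spans chr7:31200651-31202378 and the junction probe of Clec7a spans chr6:129420986-129422630 (mm9).
Tyrobp: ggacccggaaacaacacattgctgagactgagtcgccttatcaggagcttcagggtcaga
Clec7a, junction probe: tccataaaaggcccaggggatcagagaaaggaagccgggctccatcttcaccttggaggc
The other probe of Clec7a lay further 3′ in the transcript, at chr6:129411739-129411798, and is called the 3′ probe.

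Signals were background-subtracted spot intensities, taken to log2 and quantile normalized over the 5 arrays, so that a difference of 1 is a 2-fold difference. A probe was taken as measured where the scanner software set it well above the background of its array. That held for 10 of the 11 probes on every endothelial array (LSEC and the 3 TECs) and for 3 of 11 on cultured Hepa1-6. Over all probes the share lay between 44.6% and 78.1%, highest on Hepa1-6 TEC, and no probe was saturated. The error that the scanner software set on each signal was carried into the log2 ratios. It came to 0.20 to 0.21 between TECs, and between a TEC and LSEC it was 0.20 to 0.22 except for Trem3 (0.33) and for the other probe of Trem1, described below (0.998). Differences beyond 2 errors of the ratio in question are named, and the error covers the measurement on the array and not the spread between mice. There was 1 array per condition, so no value has a replicate check and no p-value can be given. The 3 TEC arrays shared a slide, whereas LSEC and cultured Hepa1-6 were each alone on another slide. In comparisons with these, the slide and the condition cannot be told apart. Levels were compared between arrays for the same probe and not between genes, except that summed signals of a list are led by its brightest probes. In such bulk samples, fewer cells of a type and less RNA per cell cannot be told apart.

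**Figure D1:**
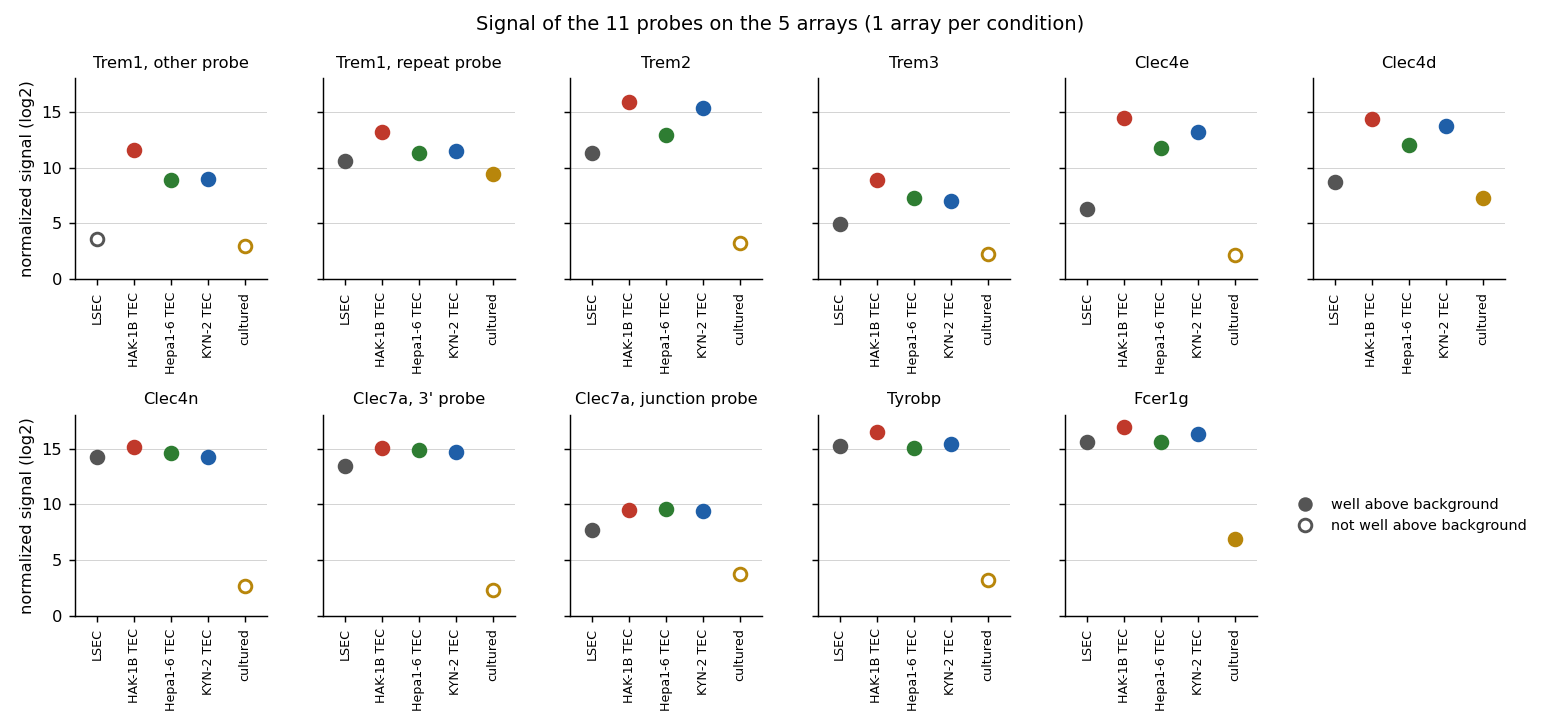
Normalized log2 signal (vertical axis) of each of the 11 probes on the 5 arrays (horizontal axis), 1 point per array, hollow where the probe was not well above background. Trem1 (other probe), Trem2, Clec4e and Clec4d sat far higher on the TEC arrays than on LSEC, Clec4n, Tyrobp and Fcer1g were bright on all 4 endothelial arrays, and 8 of 11 points for cultured Hepa1-6 are hollow.

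Among the TREM receptors, Trem1 was near the limit of the array in LSEC and clearly measured in every TEC by its other probe. This probe read 3.59 in LSEC, not well above background, 11.55 in HAK-1B TEC, 8.91 in Hepa1-6 TEC, 9.01 in KYN-2 TEC and 2.99 in cultured Hepa1-6, again not well above background. Since LSEC gave no measured signal, the folds are bounds, of 117-fold for HAK-1B TEC, 18.8-fold for Hepa1-6 TEC and 20.1-fold for KYN-2 TEC. Each bound sets the TEC's signal against the lowest signal among the probes well above background on the LSEC array. Bounds here and below, including those given as at least, leave out the error of the signals, which was 0.998 in log2 for these ratios. All 3 TECs were high, and Hepa1-6 TEC and KYN-2 TEC differed from each other by less than 2 errors.

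The repeat probe of Trem1 ranked the arrays in the same order over a much smaller range. It read 10.56 in LSEC, 13.21 in HAK-1B TEC, 11.32 in Hepa1-6 TEC, 11.45 in KYN-2 TEC and 9.42 in cultured Hepa1-6, well above background on each. HAK-1B TEC was the highest, and cultured Hepa1-6 still gave a measured signal here, where the other probe gave none. Its ratios to LSEC were 6.28-fold in HAK-1B TEC and a smaller 1.69-fold and 1.85-fold in Hepa1-6 TEC and KYN-2 TEC, with a mean log2 ratio of 1.43 ± 1.06 (SD over 3 TECs) against 6.23 ± 1.495 for the other probe. The 2 probes of Trem1 thus disagreed on the size and agreed on the direction. The part of the repeat in this was not tested. Where a gene is read by its brightest probe below, Trem1 is read by the repeat probe.

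Trem2, the lipid receptor, was already measured in LSEC and was higher in each TEC. Its signal was 11.30 in LSEC, 15.88 in HAK-1B TEC, 12.95 in Hepa1-6 TEC, 15.37 in KYN-2 TEC and 3.19 in cultured Hepa1-6, where it was not well above background. The tumors of both human lines were high, at 24.0-fold and 16.8-fold over LSEC, and the tumor of the mouse line lay between, at 3.15-fold. The mean log2 ratio was 3.44 ± 1.56 (SD over 3 TECs), the widest spread of the set. Trem2 was 5.32-fold higher in KYN-2 TEC than in Hepa1-6 TEC, the largest difference between these 2 arrays among the 11 probes.

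Trem3, a receptor of mouse myeloid cells that also uses DAP12, was measured close to background in LSEC. It read 4.91 in LSEC, just above the lowest measured signal of 4.68 on that array, 8.92 in HAK-1B TEC, 7.23 in Hepa1-6 TEC, 7.01 in KYN-2 TEC and 2.29 in cultured Hepa1-6, the last not well above background. HAK-1B TEC stood apart, and the other TECs did not differ by 2 errors. The ratios to LSEC were 16.1-fold, 4.99-fold and 4.28-fold in that order of TECs. With another background correction (normexp) the mean log2 ratio fell from 2.81 to 1.57, so its size depended on the background correction.

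Among the lectins, Clec4e showed the largest ratio to LSEC of the probes measured on all endothelial arrays. Its signal was 6.28 in LSEC, 14.47 in HAK-1B TEC, 11.75 in Hepa1-6 TEC, 13.19 in KYN-2 TEC and 2.19 in cultured Hepa1-6, where it was not well above background. The TECs were 292-fold, 44.2-fold and 120-fold above LSEC, and no pair of TECs lay within 2 errors. The mean log2 ratio was 6.86 ± 1.36 (SD over 3 TECs) and stayed between 6.19 and 7.55 with any 1 TEC left out.

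Clec4d, whose product MCL pairs with Mincle and whose gene lies next to Clec4e, followed the same order of arrays. It read 8.75 in LSEC, 14.38 in HAK-1B TEC, 12.04 in Hepa1-6 TEC, 13.76 in KYN-2 TEC and 7.24 in cultured Hepa1-6, well above background on each array. The ratios to LSEC were 49.5-fold, 9.82-fold and 32.2-fold, each smaller than that of Clec4e on the same array. In cultured Hepa1-6 the signal was 2.85-fold below LSEC.

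Clec4n, the third lectin gene of this stretch of chromosome 6, was bright in LSEC and hardly differed in the TECs. Its signal was 14.28 in LSEC, 15.10 in HAK-1B TEC, 14.59 in Hepa1-6 TEC, 14.26 in KYN-2 TEC and 2.63 in cultured Hepa1-6, where it was not well above background. HAK-1B TEC was 1.77-fold above LSEC, beyond 2 errors, and the log2 differences of 0.31 and -0.02 for Hepa1-6 TEC and KYN-2 TEC lay within 2 errors. Clec4n thus separated liver and tumor far less than Clec4e and Clec4d, its neighbors within 36.0 kb.

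Clec7a, the beta-glucan receptor Dectin-1, was higher in the 3 TECs by nearly the same amount. The 3′ probe read 13.41 in LSEC, 15.05 in HAK-1B TEC, 14.84 in Hepa1-6 TEC, 14.70 in KYN-2 TEC and 2.27 in cultured Hepa1-6. The junction probe read 7.71, 9.47, 9.54, 9.42 and 3.72 on the same arrays, and neither probe was well above background in cultured Hepa1-6. The mean log2 ratio to LSEC was 1.45 ± 0.18 for the 3′ probe and 1.76 ± 0.06 for the junction probe (SD over 3 TECs). On both probes every TEC was above LSEC by more than 2 errors and no pair of TECs differed by 2 errors, which made Clec7a the most even member between tumors.

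The adaptors moved little between liver and tumor. Tyrobp read 15.20 in LSEC, 16.52 in HAK-1B TEC, 15.07 in Hepa1-6 TEC, 15.45 in KYN-2 TEC and 3.22 in cultured Hepa1-6, where it was not well above background. Fcer1g read 15.58, 16.95, 15.58, 16.33 and 6.91 on the same arrays and was measured on each. HAK-1B TEC was 2.50-fold above LSEC for Tyrobp and 2.58-fold for Fcer1g, both beyond 2 errors. The log2 ratios of Tyrobp were -0.14 and 0.25 in Hepa1-6 TEC and KYN-2 TEC, within 2 errors of LSEC, as was that of Fcer1g in Hepa1-6 TEC at -0.00, whereas Fcer1g in KYN-2 TEC was 1.68-fold higher. Of the 6 partner receptors, Trem1 (by either probe), Trem2, Trem3, Clec4e and Clec4d had larger ratios to LSEC than their adaptor in every TEC. Clec4n had a smaller log2 ratio than Fcer1g in HAK-1B TEC (0.82 against 1.37) and in KYN-2 TEC (-0.02 against 0.75).

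**Figure D2:**
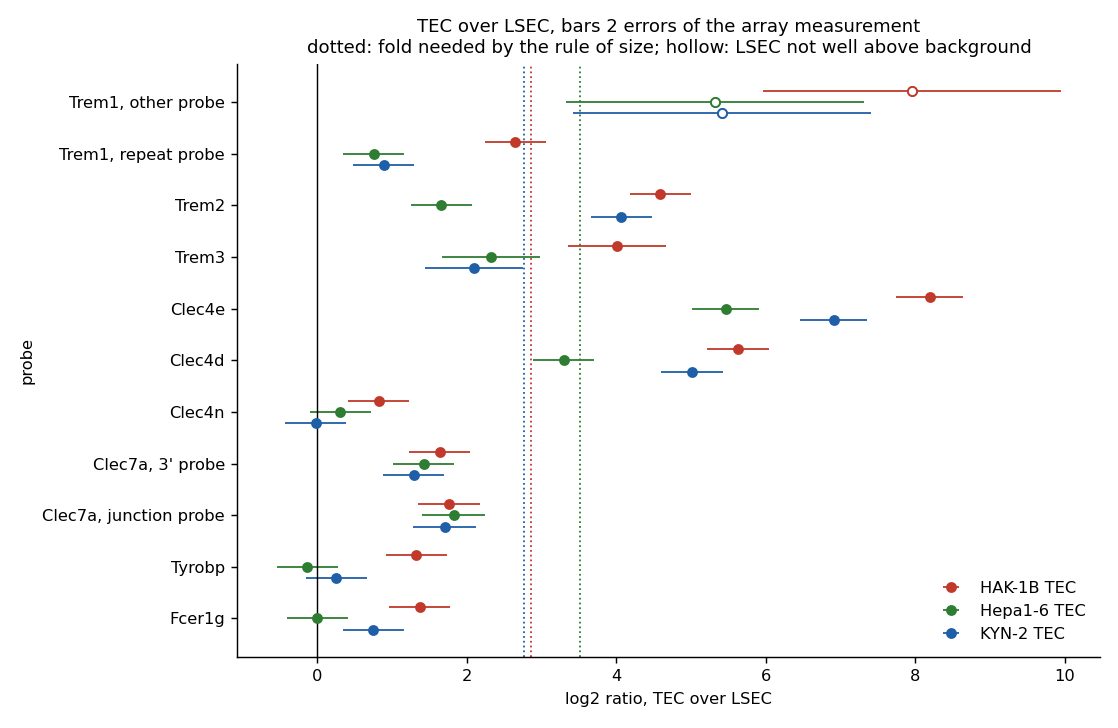
Log2 ratio of each TEC to LSEC (horizontal axis) for the 11 probes (vertical axis), with bars of 2 errors of the array measurement and dotted lines at the fold the rule of size needed in each TEC. The ratios ran from -0.14 (Tyrobp, Hepa1-6 TEC) to 8.19 (Clec4e, HAK-1B TEC), and the hollow points of Trem1 rest on an LSEC signal not well above background.

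The study called a gene by size, with a ratio of at least 1.5 and a Z-score of at least 2 over all probes kept, and the same rule was applied to the members. In HAK-1B TEC it called 5 of 9 members higher than LSEC, Trem1, Trem2, Trem3, Clec4e and Clec4d, where 3.60% of all genes were called higher. In Hepa1-6 TEC it called Trem1 and Clec4e (5.38% of all genes), and in KYN-2 TEC it called Trem1, Trem2, Clec4e and Clec4d (4.50% of all genes). Trem1 and Clec4e were called in all 3 TECs, as were 0.650% of all genes, and these are the genes from which the set was started. Each call of Trem1 came from its other probe. No member was called lower, where 4.51%, 2.68% and 3.52% of all genes were in the 3 TECs. Nothing is read from these shares, since the comparison with LSEC chose the set. The Z-score asked for a fold of 7.25 for HAK-1B TEC, of 11.4 for Hepa1-6 TEC and of 6.79 for KYN-2 TEC. Clec4d in Hepa1-6 TEC, at 9.82-fold, fell just outside, and the member nearest to the limit on the inside by its Z-score was Trem3 in HAK-1B TEC at 16.1-fold.

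By the ratio alone, 9 members were at least 1.5-fold higher in HAK-1B TEC (33.0% of all genes), 6 of them in Hepa1-6 TEC (42.9%) and 7 of them in KYN-2 TEC (33.6%). In all 3 TECs together, 6 of 9 members were at least that much higher, beside 13.9% of all genes: Trem1, Trem2, Trem3, Clec4e, Clec4d and Clec7a. The median log2 ratio of the members, by their brightest probes, was 2.65 in HAK-1B TEC and lower, at 1.43 and 1.29, in Hepa1-6 TEC and KYN-2 TEC, beside 0.05, 0.05 and -0.02 over all probes kept. With Trem1 read by its other probe, a choice made after its values were seen, these medians became 4.01, 1.66 and 2.10.

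The rule of the set did not compare the TECs with each other, but it used the TEC signals of Trem1 and Clec4e against LSEC. The set was also chosen with earlier results of these data known, so the counts between TECs are a description as well. The 3 arrays shared a slide. With 1 array each, the tumor, the species of its line and its host mice cannot be told apart between them. RNA of cancer cells would be human in HAK-1B TEC and KYN-2 TEC and mouse in Hepa1-6 TEC, and its part was not tested. HAK-1B TEC was the highest of the 3 TECs for 9 of 9 members by the brightest probe, where it was the highest for 35.4% of 17827 genes measured on all 3. The exception among the 11 probes was the junction probe of Clec7a, where Hepa1-6 TEC read 9.54 against 9.47, within the error. HAK-1B TEC exceeded Hepa1-6 TEC beyond 2 errors for 9 of 11 probes, as for 43.2% of all probes measured on both arrays. It exceeded KYN-2 TEC for 9 of 11 as well, where 22.4% of all probes did, the probes of Clec7a being the others in each case. The largest excess over Hepa1-6 TEC was 7.61-fold for Trem2, and the smallest beyond 2 errors was 1.43-fold for Clec4n. Against KYN-2 TEC the excess ran from 1.43-fold for Trem2 to 5.82-fold for Trem1 by its other probe.

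Few of these differences passed the rule of size. Trem1 alone was called higher in HAK-1B TEC than in KYN-2 TEC, by its other probe, where 3.79% of all genes were called, and no member was called lower there (4.12% of all genes). No member was called in either direction between HAK-1B TEC and Hepa1-6 TEC, where 2.13% of genes were called higher and 5.99% lower. The same held between KYN-2 TEC and Hepa1-6 TEC, where 2.32% were called higher and 5.74% lower. By the ratio alone, 7 members were higher in HAK-1B TEC than in Hepa1-6 TEC (37.1% of all genes), 7 higher than in KYN-2 TEC (25.8%) and 4 higher in KYN-2 TEC than in Hepa1-6 TEC (36.6%). Those 4 were Trem2, Clec4e, Clec4d and Fcer1g, and the same 4 were higher beyond 2 errors (41.7% of all probes), whereas Trem1, Trem3, Clec4n, Clec7a and Tyrobp lay within 2 errors between these arrays. The counts by the rule of size between TECs changed with the normalization, as given with the alternatives.

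Cultured Hepa1-6 cells gave little signal for the set. Compared with LSEC, 5 of 9 members were called lower by the rule of size, Trem2, Clec4n, Clec7a, Tyrobp and Fcer1g, beside 5.23% of all genes. LSEC exceeded the cultured cells at least 604-fold for Tyrobp, at least 319-fold for Clec4n, at least 175-fold for Clec7a by the 3′ probe and at least 40.4-fold for Trem2, where the rule needed 51.2-fold, so that the call of Trem2 rested on a cultured signal that was not measured. Fcer1g was measured in both and was 408-fold higher in LSEC. For Trem1 by its other probe no fold can be given, since neither array measured it, and the dim LSEC signals of Trem3 and Clec4e left no bound or a bound of at least 1.25-fold. By the ratio alone all 9 were lower (41.4% of all genes). Set against cultured Hepa1-6, 9 members were called higher in HAK-1B TEC (5.07% of all genes), again 9 in Hepa1-6 TEC (5.52%) but 8 in KYN-2 TEC (5.27%), and 8 were called in all 3 tumors (4.13%). The member missing in KYN-2 TEC was Trem3. Since 8 of 11 probes were not measured in the cultured cells, these calls were also read with such signals at their bound. Then 8 of the 9 remained in HAK-1B TEC, without Trem3, 7 of 9 in Hepa1-6 TEC, without Trem1 and Trem3, and 7 of 8 in KYN-2 TEC, without Trem1. The bounds of Trem3 were at least 7.78-fold and 2.41-fold in the first pair, where the rule needed 43.1-fold and 21.1-fold. These cells are the line that formed the Hepa1-6 tumor, and no array of cultured HAK-1B or KYN-2 cells was analysed here.

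Genes with a pattern most like that of a member were found by the root mean square difference of log2 signals over the 5 arrays, each centered on its own mean, among 27056 brightest probes. For the repeat probe of Trem1 the nearest were Ntpcr (0.05), Sfxn5 (0.15), Plk3 (0.16), Klk1b4 (0.20) and Fcrlb (0.21), and none of their probes held more than 1 TTG unit in a row. For the other probe of Trem1, searched after its values were seen, they were Adora2b (0.43), Spon1 (0.63), Dcstamp (0.65), Ptafr (0.73) and Gpr31b (0.76). The 2 lists shared no gene. For Trem2 the nearest were Arl5c (0.40), Osm (0.57), Cd34 (0.71), Ptgs2 (0.71) and Basp1 (0.72). For Clec4e they were Arg1 (0.64), Syngr1 (0.79), Saa3 (0.81), Slc16a3 (0.84) and Itgax (0.86). Of these, Arg1, a gene of arginase, read 7.29 in LSEC and 14.74, 13.76 and 15.03 in the TECs. With 5 arrays such distances are a description only.

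**Figure D3:**
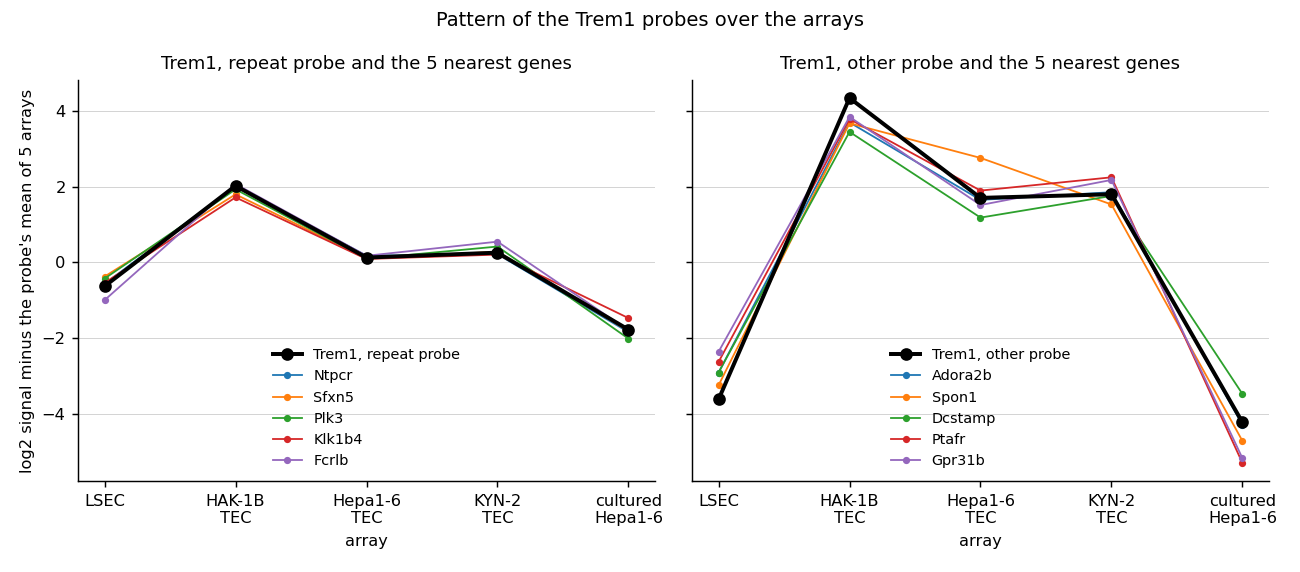
Log2 signal minus the mean of the 5 arrays (vertical axis) on each array (horizontal axis) for the repeat probe of Trem1 (left) and its other probe (right), each with its 5 nearest genes. The other probe ran from LSEC at 3.59 to HAK-1B TEC at 11.55 before centering, whereas the repeat probe ran from 10.56 to 13.21 between these arrays.

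The other genes of the pathway were taken from lists written for this purpose. Counts are of genes with a probe at least 1.5-fold higher, or at most 0.66-fold, in all 3 TECs, where 13.9% and 21.4% of all genes were. The nearest relatives of the members did not share their direction as a group. Of 3 other Trem genes none was higher and 3 were lower by at least 1 probe. Treml1, a receptor of platelets, read 12.02 in LSEC and 9.91, 9.17 and 11.26 in HAK-1B TEC, Hepa1-6 TEC and KYN-2 TEC. Treml4 read 14.04 in LSEC and 11.52, 12.74 and 12.35 in the TECs, whereas the brightest probe of Treml2 differed by 0.55 at most.

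Of 23 other C-type lectin genes, 3 were higher and 11 lower. The higher ones included Clec5a, an activating receptor that also uses Tyrobp, at 6.21 in LSEC and 12.39, 9.72 and 10.06 in the TECs. Olr1, the receptor of oxidized lipoprotein, was not well above background in LSEC and read 9.83, 5.47 and 8.14 in the TECs. The lower ones included the lectins of sinusoids and Kupffer cells. Clec4g, a lectin of sinusoidal endothelium, read 18.04 in LSEC and 13.67, 14.26 and 14.17 in the TECs, and Clec4f, the Kupffer cell lectin, read 17.07 and 11.50, 15.05 and 14.45.

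Of 22 genes that carry the signal of these receptors, 7 were higher and none lower by this count: Syk, Src, Card9, Malt1, Lat2, Pik3cd and Prkcd. Lat2, an adaptor of immune receptors, had the largest mean ratio, with 6.86 in LSEC and 11.26, 9.12 and 10.79 in the TECs. The brightest of 4 probes of Syk, the kinase that binds the adaptors, read 12.56 in LSEC and 13.97, 12.48 and 13.36 in the TECs, so another of its probes made the call. The same held for Pik3cd, whose brightest probe read 11.14 in LSEC and 12.16, 11.23 and 10.76 in the TECs. Of 17 inhibitory receptors and phosphatases, 3 were higher and 3 lower. Cd300lf counted as higher by another probe, while its brightest read 13.20 in LSEC and 12.12, 11.51 and 12.87 in the TECs. Clec4a2, an inhibitory lectin, read 6.86 in LSEC and was not well above background in any TEC, and Fcgr2b, the inhibitory Fc receptor that sinusoidal cells carry, read 15.86 and 14.47, 13.17 and 13.48. Of 16 other receptors that use these adaptors, 4 were higher and 6 lower, with Cd244 in both counts by different probes.

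Of 22 genes known as outputs of myeloid activation, 9 were higher and none lower. By the rule of size Cxcl3, Ptgs2 and Spp1 were higher in all 3 TECs. Cxcl3, a chemokine for neutrophils, was not well above background in LSEC and read 11.27, 10.96 and 10.18 in the TECs, with 10.28 in cultured Hepa1-6. Ptgs2, the inducible cyclooxygenase, read 8.64 in LSEC and 14.37, 12.41 and 13.96 in the TECs. Spp1, osteopontin, read 9.83 in LSEC, 15.98, 13.53 and 15.86 in the TECs and 11.86 in cultured Hepa1-6. Of 10 known or proposed ligands, Anxa1 and Vim were higher and Hspa1a was lower. Pglyrp1 had the largest mean ratio of this list and fell just outside the count, at 1.496-fold in KYN-2 TEC. It read 6.33 in LSEC, 9.62, 13.36 and 6.91 in the TECs and 9.65 in cultured Hepa1-6. Cd177 read 7.78 in HAK-1B TEC and 4.85 in Hepa1-6 TEC and was not well above background in LSEC or KYN-2 TEC. In the single TECs, 4, 5 and 2 of the 10 were higher by their brightest probe, and 3, 1 and 3 were lower. Of 14 transcription factors of myeloid cells, 5 were higher and 4 lower, and Spi1, the gene of PU.1, read 8.20 in LSEC and 10.60, 8.77 and 9.68 in the TECs. Irf8 counted as lower by another probe, while its brightest read 13.17 in LSEC and 14.03, 13.73 and 13.62 in the TECs. Mitf and Hif1a counted as higher by probes other than their brightest.

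**Figure D4:**
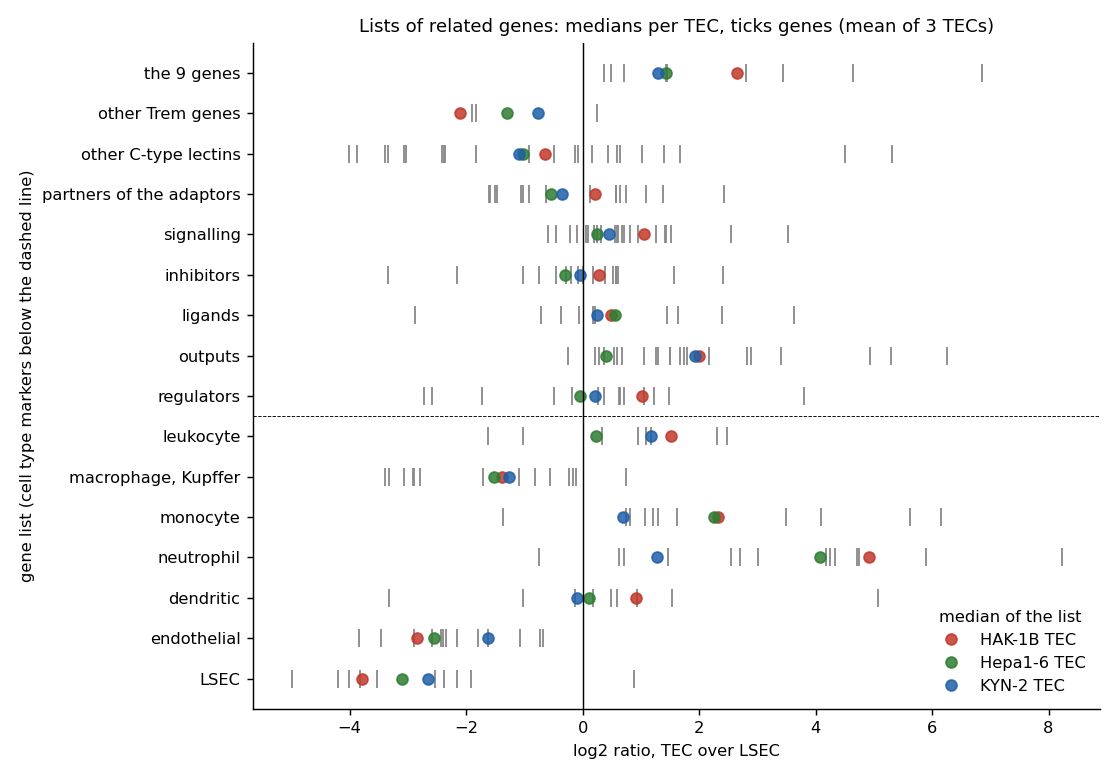
Median log2 ratio to LSEC (horizontal axis) of each gene list (vertical axis) in the 3 TECs as points, with grey ticks for single genes by their brightest probe, averaged over the 3 TECs. The 9 genes had medians of 1.29 to 2.65, the neutrophil markers of 1.28 to 4.92, and the endothelial markers of -2.84 to -1.62.

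Markers of the myeloid cell types differed in direction from list to list. Of 14 macrophage and Kupffer cell markers, none was higher in all 3 TECs by the ratio alone and 8 were lower, among them Clec4f, Cd5l, Vsig4, Marco and Timd4. Their summed signal was 66.6%, 40.2% and 42.8% of LSEC in HAK-1B TEC, Hepa1-6 TEC and KYN-2 TEC. C1qa, a complement gene of all macrophages, read 15.72 in LSEC and 16.55, 14.92 and 15.36 in the TECs. Of 11 monocyte markers 7 were higher and 1 lower, with Itgam in both counts by different probes. Their summed signal was 475%, 334% and 226% of LSEC in the TECs and 266% in cultured Hepa1-6, where Fn1, Ly6c1 and Chil3 read 16.52, 14.50 and 12.17. Of 14 neutrophil markers 7 were higher and none lower, and their median log2 ratio was 4.92, 4.07 and 1.28 in the TECs. By the rule of size Mmp8, Mmp9 and Il1r2 were higher in all 3 TECs, as were 0.650% of all genes. The summed signal of the 14 neutrophil markers was 238%, 93.5% and 96.4% of LSEC in the TECs and 42.0% in cultured Hepa1-6. Csf3r, the receptor of G-CSF, made up most of that sum in LSEC and read 16.45 there and 15.80, 15.17 and 16.15 in the TECs. S100a8, which marks neutrophils and monocytes, read 7.82 in LSEC and 14.86, 12.19 and 9.44 in the TECs, whereas Ly6g, the defining neutrophil marker, was measured in HAK-1B TEC (6.12) and Hepa1-6 TEC (7.10) and not in LSEC or KYN-2 TEC, and read 9.74 in cultured Hepa1-6. Of 9 dendritic cell markers 2 were higher and 2 lower. The part of these cells in the values of the members was not tested.

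Endothelial markers were measured on all 4 endothelial arrays, and most were lower in the TECs. Of 13 such markers, 11 were lower in all 3 TECs, and their summed signal was 15.5%, 15.1% and 31.2% of LSEC. Tek, the receptor of angiopoietins, read 12.83 in LSEC and 9.17, 8.26 and 9.53 in the TECs. Pecam1, the gene of CD31 used for the isolation, read 11.10 in LSEC and 9.93, 9.15 and 11.01 in the TECs. Emcn read 13.72 in LSEC and 12.98, 12.14 and 13.87 in the TECs. The brightest of 3 probes of Vwf read 13.59 in LSEC and 12.53, 12.08 and 14.11 in the TECs, so another of its probes made the call. Of 10 LSEC markers 9 were lower. The exception, Lyve1, read 11.29 in LSEC and 11.07, 12.26 and 13.17 in the TECs. Unlike that of the endothelial markers, the summed signal of the members was above LSEC, at 331%, 127% and 198% of it in the 3 TECs. In cultured Hepa1-6 it was 0.816% of LSEC. Fcer1g and Tyrobp, at 15.58 and 15.20, made up most of that sum in LSEC. Among 8 markers of all leukocytes, Coro1a, Laptm5, Lcp1 and Cd52 were higher and Cd37 was lower in all 3 TECs, Lcp1 by a probe other than its brightest. The brightest of 7 probes of Ptprc, the gene of CD45, read 12.40 in LSEC and 11.86, 11.37 and 10.86 in the TECs. The cell type that carried the members' RNA was not measured. T and NK cell markers (3 higher and 1 lower of 11), B and plasma cell markers (none and 1 of 6), mast cell and basophil markers (none and 2 of 6), hepatocyte markers (none and 2 of 9) and fibroblast markers (5 and none of 10) were counted in the same way. The summed hepatocyte signal was 3.80%, 284% and 7.09% of LSEC in the TECs and 215% in cultured Hepa1-6. Within Hepa1-6 TEC, 4 of the 9 were at least 1.5-fold higher by their brightest probe and 3 were lower. Afp read 7.80 in LSEC, 6.21, 15.38 and 8.06 in the TECs and 15.92 in cultured Hepa1-6. The study calls contamination by cancer cells inevitable in the isolation and took genes related to cancer cells out of its own list. The part of such contamination in Hepa1-6 TEC was not tested.

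Promoter sequence was at hand for 6 members from RefSeq (GRCm38.p6), and Trem3, Clec4n and Tyrobp are named only. It is shown for Trem1, Clec4d and Clec4e, which were higher in the TECs, and for the 250 bases before the listed start in the direction of the gene. Capitals mark GAGGAA or its complement TTCCTC, a core that PU.1 and other Ets factors bind. The windows were chr17:48232489-48232738 on the plus strand for Trem1, chr6:123261857-123262106 on the plus strand for Clec4d and chr6:123289872-123290121 on the minus strand for Clec4e.
Trem1 promoter: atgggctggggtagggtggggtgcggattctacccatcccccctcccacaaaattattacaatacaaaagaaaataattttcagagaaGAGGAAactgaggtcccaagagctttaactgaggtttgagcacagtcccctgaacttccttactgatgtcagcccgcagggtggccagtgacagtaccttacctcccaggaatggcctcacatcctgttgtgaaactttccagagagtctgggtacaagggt
Clec4d promoter: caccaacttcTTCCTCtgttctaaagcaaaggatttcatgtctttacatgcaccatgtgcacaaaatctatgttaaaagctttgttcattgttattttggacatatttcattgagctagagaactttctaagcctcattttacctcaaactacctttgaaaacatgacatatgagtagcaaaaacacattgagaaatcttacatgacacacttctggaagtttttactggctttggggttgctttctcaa
Clec4e promoter: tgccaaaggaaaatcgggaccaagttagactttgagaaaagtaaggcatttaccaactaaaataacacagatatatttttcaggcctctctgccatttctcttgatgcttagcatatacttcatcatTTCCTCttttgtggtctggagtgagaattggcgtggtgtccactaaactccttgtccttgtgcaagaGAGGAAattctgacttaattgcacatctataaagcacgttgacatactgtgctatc
In windows from 250 bases before to 50 after the start, GAGGAA was found on either strand in 5 of 6 members, all but Fcer1g, and in 28.3% of all 32851 promoters. Clec7a was read by the first of its listed starts. TGANTCA, the letters AP-1 binds, was found in Trem2 alone (7.81% of all promoters). TTGCNNAA, the letters C/EBP factors bind, was found in Trem2 and Clec4e (10.8% of all promoters). A match is a run of letters and not a measured site.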

How the data were processed

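RNA was amplified, labelled with Cy3 and hybridized to 60-mer mouse arrays. The authors deposited linear spot intensity from the scanner, with the background of the array already subtracted, flags, and a table of normalized intensity values for the same arrays (Agilent Feature Extraction 9.5.1.1 per the labels). The deposited table was used as an alternative only.

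Control spots were left out, spots of 1 probe were averaged, and the 5 arrays were quantile normalized together on the log2 scale. As in the methods, a probe entered a comparison when either array flagged it present, without the 4460 lincRNA probes. Calls needed a ratio of 1.5 or more and a Z-score of 2 or more, or a ratio of 0.66 or less and a Z-score of -2 or less. A gene counted when 1 probe passed, the same probe in each TEC. No test fits 1 array per condition. The number of arrays limits the precision.

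The members and the 20 gene lists were chosen with earlier results of these data known. The text names every member, up to 3 high and 2 low genes of each list by mean ratio, and the 5 nearest genes by pattern. Other genes are named because they made up a count or define a cell type, chosen after their values were seen. As alternatives, arrays were scaled to the 75th percentile, quantile normalized by pair or over the endothelial arrays, corrected by normexp (offset 50) or taken from the deposited table, with further runs for other flag filters, no Z-score, the brightest probe only and each TEC left out. R 4.3.3 with limma 3.58.1 (normexp), Python 3.11.15, numpy 2.4.6 and pandas 2.3.3 were used.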

Additional observations from a re-analysis of the deposited data

Results flagged for a closer look

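For 3 genes the tumors lay on both sides of LSEC. The log2 ratio of Clec4n was 0.82 in HAK-1B TEC and 0.31 and -0.022 in the TECs of Hepa1-6 and KYN-2. That of Tyrobp was 1.32, -0.14 and 0.25 in the same order, and that of Fcer1g was 1.37, -0.0029 and 0.75. The difference between tumors was not tested, with 1 array for each, and the values below 0 lay within 2 errors of LSEC. Under scaling to the 75th percentile these became 0.40 for Clec4n in KYN-2 TEC, 0.24 for Tyrobp in Hepa1-6 TEC and 0.41 for Fcer1g in Hepa1-6 TEC, all above LSEC, while the median over all probes in Hepa1-6 TEC went from 0.05 to 0.43.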

How the results depend on the processing

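No paired analysis was possible because the labels hold a single array of every condition. The count of members called higher in all 3 TECs was 2, and it was 6 by the ratio alone, 1 (Clec4e) with the brightest probe only and 2 to 4 with 1 TEC left out, the 4 without Hepa1-6 TEC. By the ratio alone the single counts went from 5 to 9 in HAK-1B TEC, from 2 to 6 in Hepa1-6 TEC and from 4 to 7 in KYN-2 TEC, and with the brightest probe only that in Hepa1-6 TEC was 1. Members lower in cultured Hepa1-6 than in LSEC went from 5 to 1 when present on both arrays was asked and to 9 by the ratio alone, and members above cultured Hepa1-6 went to 3, 2 and 2 for HAK-1B TEC, Hepa1-6 TEC and KYN-2 TEC when present on both was asked, since 3 of 11 probes were measured there. HAK-1B TEC over Hepa1-6 TEC had 0 calls and 2 with scaling to the 75th percentile, 4 with normexp, 1 with the deposited table, 1 with present on both, 1 with no flag filter and 7 by the ratio alone. HAK-1B TEC over KYN-2 TEC had 1 call and 3 with normexp, 2 with present on both, 2 with no flag filter, 7 by the ratio alone and 0 with the brightest probe only. KYN-2 TEC over Hepa1-6 TEC had 0 calls and 1 with scaling to the 75th percentile, 2 with normexp and 4 by the ratio alone. With Trem1 by its probe without the repeat, chosen after seeing the data, the median log2 ratio of the members was 4.01 for HAK-1B TEC, 2.10 for KYN-2 TEC and 2.81 for the mean of the 3 TECs, from 2.65, 1.29 and 1.45, and the last was 1.36 to 1.77 with 1 TEC left out. The cause of these changes was not tested, apart from the filters named. No ratio averaged over the 3 TECs reversed under any alternative run. Dim signals limit Trem1 and Trem3 in LSEC.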
